A study of Mus musculus with 31 samples.

Results

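The clustered replication-dependent histone genes were taken as every gene whose name starts with Hist1h, Hist2h, Hist3h or Hist4h, which gave 71 gene IDs under 70 names out of 46072 genes. They comprised 6 H1, 20 H2A, 20 H2B, 12 H3 and 13 H4 genes, with 56 on chromosome 13, 11 on chromosome 3, 3 on chromosome 11 and 1 on chromosome 6. GENCODE M21 typed 65 as protein coding and 1 Hist2h2bb ID as a lincRNA, and did not list 2. It typed Hist1h2al and Hist3h2bb-ps as processed pseudogenes and Hist1h2aj as an unprocessed pseudogene. Of these noncoding members only Hist1h2al was abundant enough to be tested. It lies at chr13:51202688-51203065, away from the other chromosome 13 members. RNA was sequenced from 31 subcutaneous tumors, 1 per mouse, in wild-type C57BL/6J mice (labelled C57BL/6) that had received 1000000 RM9 or MC38 cells in the right hind leg, here called RM-9, a mouse prostate cancer line, and MC-38, a mouse colon cancer line. Tumors had reached 8 mm in diameter when they received a single dose of 15 Gy (RT) or no treatment (control). Control, RT 3 h, RT 12 h and RT 24 h groups held 4 mice each, except RM-9 RT 24 h with 3. The controls carried the 3 h time label and served for all 3 comparisons within a tumor model, so those comparisons share their control mice.

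Histones H2A, H2B, H3 and H4 form the core of the nucleosome, and H1 binds the DNA between nucleosomes. The clustered genes supply new histone protein while DNA is copied, and their transcription rises in S phase under NPAT, a coactivator that gathers at the clusters. Their mRNAs mostly end in a stem-loop bound by SLBP in place of a poly(A) tail and are degraded when DNA synthesis stops, although some of these genes also make polyadenylated transcripts. The library kit selects poly(A) RNA, so the levels below are those of the captured transcripts, and the share of each gene's mRNA that was captured was not tested.

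Sequences of the members are shown because the H4 genes, which carried most of the changes called, differ from the other classes in how often they hold certain elements. For each member the longest GENCODE M21 transcript was used, within the listed gene extent where there was one. Of 64 members whose transcript was coding, 42 held a 16-base stem-loop downstream of the stop codon. It was written GG, 2 pyrimidines, CTT, a pyrimidine, T, any base, AG, 2 purines and CC. In 13 others the gene model ended at the stop codon. Hist1h2be, typed as protein coding, was left out because the transcript used held no coding sequence. The stem is in capitals and the loop in lower case.
Hist1h4i: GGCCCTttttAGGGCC
Hist1h4c, Hist1h4m and Hist1h4n: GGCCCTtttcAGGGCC
Hist1h4b: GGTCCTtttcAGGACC
Hist1h1c and Hist3h2a: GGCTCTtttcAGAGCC
The Hist1h4i stem-loop began 30 bases after the coding end and that of Hist1h1c 24 bases after it. The sequence of Hist1h1c and Hist3h2a was the most common, in 22 members, and that of Hist1h4c was found in 7 members, all of them H4 genes. A stem-loop was not found in the Hist1h2bc transcript model.

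RefSeq promoters (GRCm38.p6, 250 bases before to 50 bases after the gene start) matched 63 members. The 2 Hist2h2bb IDs share 1 promoter, which is counted for each, whereas identical sequences were counted once among all promoters. On either strand, GGTCCG, the core of the H4 site II element, occurred in 11 of 12 H4 promoters, in 0 of 6 H1, 0 of 18 H2A, 1 of 17 H2B and 1 of 10 H3 promoters, and in 8.31% of all 32544 promoters. CCAAT occurred in every promoter of the other classes but in 3 of 12 H4 promoters, against 37.4% of all promoters. The octamer ATTTGCAT occurred in 7 H2A and 7 H2B promoters (Hist2h2bb counted for both IDs) and in no H1, H3 or H4 promoter, against 1.75% of all. AAACACA occurred in 5 of 6 H1 promoters against 7.20% of all, and TATAAA in 35 of the 63 against 13.6% of all. The promoters of the most abundant H4 gene, of Hist1h4k and, for contrast, of Hist1h1c are given with these motifs in capitals on whichever strand they lie.
Hist1h4i (chr13:22041313-22041612, minus strand): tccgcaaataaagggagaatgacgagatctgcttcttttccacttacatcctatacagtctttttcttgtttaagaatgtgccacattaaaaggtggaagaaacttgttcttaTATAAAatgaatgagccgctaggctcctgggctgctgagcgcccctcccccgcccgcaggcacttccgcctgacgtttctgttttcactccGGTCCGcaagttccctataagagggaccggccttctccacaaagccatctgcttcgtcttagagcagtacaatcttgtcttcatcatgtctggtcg
Hist1h4k (chr13:21750504-21750803, minus strand): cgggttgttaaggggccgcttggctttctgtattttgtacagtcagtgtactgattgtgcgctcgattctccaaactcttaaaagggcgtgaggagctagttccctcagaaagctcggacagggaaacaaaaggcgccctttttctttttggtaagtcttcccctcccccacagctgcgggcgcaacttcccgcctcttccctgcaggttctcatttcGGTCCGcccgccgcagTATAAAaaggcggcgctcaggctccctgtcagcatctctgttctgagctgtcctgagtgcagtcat
Hist1h1c (chr13:23738557-23738856, plus strand): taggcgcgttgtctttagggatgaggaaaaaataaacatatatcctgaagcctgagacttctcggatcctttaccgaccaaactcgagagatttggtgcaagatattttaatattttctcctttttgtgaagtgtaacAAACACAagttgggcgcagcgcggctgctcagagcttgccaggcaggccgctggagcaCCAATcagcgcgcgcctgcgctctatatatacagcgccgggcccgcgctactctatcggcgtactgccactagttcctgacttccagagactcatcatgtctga
Both H4 windows held GGTCCG and no CCAAT, and the Hist1h1c window held CCAAT and AAACACA and no GGTCCG. A match describes letters in this window and says nothing of the factor that may bind.

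Levels are given as TPM, a share of the transcripts of a library that is corrected for gene length. Depth was about 21400000 to 29400000 reads of 75 bases per library. One mitochondrial gene, mt-Nd4l, took 35.6% to 43.5% of all TPM in RM-9 and 12.9% to 29.6% in MC-38, so TPM of all other genes depend on it. The 6 skeletal muscle markers summed to 2.75 to 2105 TPM in RM-9 libraries and 5.54 to 9789 TPM in MC-38 libraries. The labels call both tumors adenocarcinoma. The 4 epithelial markers (Epcam, Krt8, Krt18 and Cdh1) summed to at least 610 TPM in every RM-9 library and to 0.424 to 1.56 TPM in MC-38. In these bulk tumors, fewer cells of a type and less RNA per cell cannot be told apart.

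Most clustered histone genes were near the lower end of the measured range. A mean of at least 0.5 TPM was reached by 25 of the 71 in RM-9 and by 35 in MC-38, of which 23 were shared, and only these were tested. By class, the tested members were 2 H1, 4 H2A, 10 H2B, 1 H3 and 8 H4 genes in RM-9, and 4 H1, 6 H2A, 9 H2B, 5 H3 and 11 H4 genes in MC-38. The members just inside and just outside the limit were Hist1h4b (0.508 TPM) and Hist1h2bk (0.496 TPM) in RM-9 and Hist1h3h (0.506 TPM) and Hist1h2bl (0.471 TPM) in MC-38. Hist1h2aa was listed at 0 in all 31 libraries. Hist1h1a, an H1 gene of proliferating cells, was listed at 0 in all 15 RM-9 libraries and at 0.06 to 1.58 TPM in the 16 MC-38 libraries.

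The leading members differed between the models, which were not tested against each other for level. In RM-9 the H2B gene Hist1h2bc led with a mean of 39.8 TPM, followed by the linker histone gene Hist1h1c (13.7 TPM) and the H2A gene Hist2h2aa1 (8.05 TPM), and these 3 genes made up 58.3% of the summed mean TPM of the members. In MC-38 the H4 gene Hist1h4i led with 16.7 TPM, ahead of Hist1h2bc (9.99 TPM) and Hist1h1c (5.96 TPM), which together made up 39.5%. The H3 gene with the highest mean was Hist2h3c2 in RM-9 (0.84 TPM) and Hist1h3i in MC-38 (0.79 TPM), so H3 was the class with the lowest leading gene in both. In the control tumors the 13 H4 genes summed to 13.1 ± 2.81 TPM in RM-9 (SD, n = 4) and 38.8 ± 5.79 TPM in MC-38 (n = 4), and the 20 H2B genes to 50.1 ± 6.53 TPM in RM-9 and 22.3 ± 4.79 TPM in MC-38, with no overlap between the models in either class. When TPM were rescaled without the mitochondrially encoded genes, control H4 sums were still apart, at 19.9 to 30.2 in RM-9 and 47.0 to 63.0 in MC-38.

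**Figure D1:**
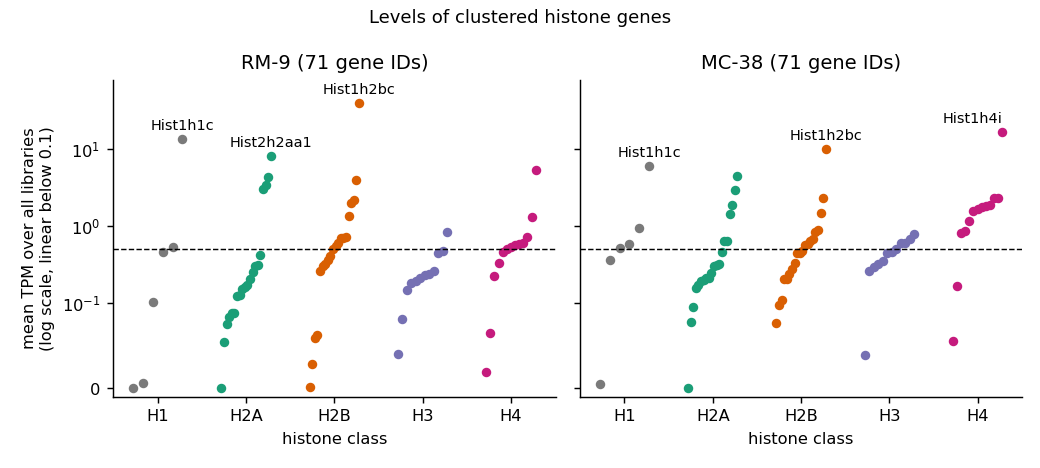
Mean TPM of each of the 71 gene IDs over all libraries of RM-9 (left, 15 libraries) and MC-38 (right, 16 libraries), by histone class, on a log axis that is linear below 0.1. The dashed line is the 0.5 TPM limit, and the 3 most abundant genes are named: Hist1h2bc at 39.8 TPM leads in RM-9 and Hist1h4i at 16.7 TPM in MC-38.

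Several of the values rest on reads that near-identical copies share. Of the members, 29 had at least 50% of their 75-base windows in common with another gene, and 2 had all of them. Hist2h2aa2 shared 100% of its windows, and its near copy Hist2h2aa1 was listed at 0 in RM-9 control mouse 1 and RM-9 RT 12 h mouse 4 but at 5.57 to 13.1 TPM in the other RM-9 libraries. Hist1h4m and Hist1h4n shared 89.0% and 83.4% of their windows, mostly with each other, and are uncertain as separate genes. Hist1h4k shared 68.1% and Hist1h4b 48.3%. In both cases Hist1h4a held all of the shared windows, and 10 genes in all held some of them. Their values are therefore not fully separate either. Hist1h4i shared 22.4%, Hist1h4c 16.9%, Hist1h1c 6.66% and Hist3h2a 30.6%. The overlapping gene Trim17 held all the windows that Hist3h2a shared, and 14 genes in all held some of them.

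The largest set of changes was in MC-38 at RT 24 h, where 6 of the 35 members tested fell and none rose, all 6 of them H4 genes (limma, adjusted p under 0.05 over all genes tested). Across all 15698 genes tested, 0.548% fell and 13.2% rose in this comparison. The 35 members had a median log2 fold change of -0.34, with 32 below 0, against 0.22 over all genes with 22.9% below 0. All 35 members were below the median gene. On log2(TPM + 0.5) the changes of low genes are drawn toward 0. How far this places members below the median gene was not tested. The 11 H4 genes tested had a median of -0.55, and all 11 were below 0.

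Hist1h4i accounted for about as much TPM as the other H4 genes together, and its fall was seen between separate groups of mice. In MC-38 its TPM were 19.5, 23.9, 23.5 and 17.6 in the control mice, 14.3, 16.4, 16.5 and 21.5 at RT 3 h, 15.6, 19.7, 15.6 and 18.2 at RT 12 h, and 9.54, 9.28, 15.0 and 10.8 at RT 24 h. Every RT 24 h mouse was below every control mouse, whereas the RT 3 h and RT 12 h mice overlapped the controls. The mean was 21.1 ± 3.06 TPM in controls and 11.2 ± 2.66 TPM at RT 24 h (SD, n = 4 each), a log2 fold change of -0.91 (SE 0.16, limma adjusted p = 0.00283), on the scale log2(TPM + 0.5) used throughout. The exact permutation test of the difference in means gave p = 0.0286, two-sided, the smallest that 4 against 4 mice allow. About 315 reads per control library and 149 per RT 24 h library lay behind these values. The call held in each of the 8 fits that left out 1 mouse and under each of the other 10 settings tried, with log2 fold changes from -1.17 to -0.83. At RT 3 h and RT 12 h the changes were -0.30 (95% CI -0.64 to 0.05, adjusted p = 0.301) and -0.28 (95% CI -0.63 to 0.07, adjusted p = 0.178). The RT 12 h change passed the test under other scalings, as given with that comparison.

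**Figure D2:**
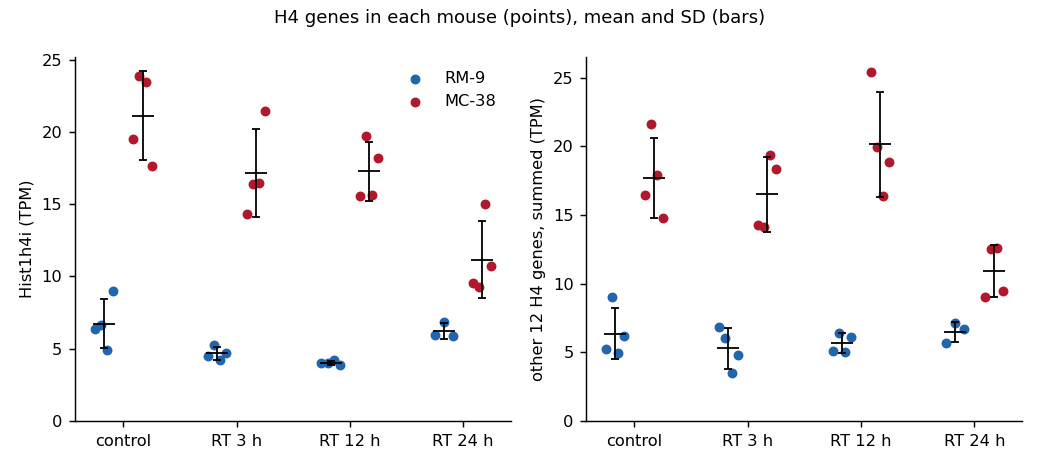
TPM of Hist1h4i (left) and summed TPM of the other 12 H4 genes (right) in each mouse (points), with the group mean and SD (bars), in RM-9 (blue) and MC-38 (red). In MC-38 the RT 24 h mice had 9.28 to 15.0 TPM of Hist1h4i against 17.6 to 23.9 in controls, and 9.04 to 12.6 TPM of the other H4 genes against 14.8 to 21.6.

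The other H4 genes that fell in MC-38 at RT 24 h were less abundant. Hist1h4k was at 2.52, 3.13, 2.44 and 2.06 TPM in controls and 1.28, 1.71, 1.56 and 1.59 TPM at RT 24 h, with no overlap, and fell by 0.57 on the log2 scale (SE 0.16, limma adjusted p = 0.0293). Hist1h4c was at 1.67, 2.31, 1.75 and 1.57 TPM in controls and 0.68, 1.13, 1.32 and 0.88 TPM at RT 24 h, again with no overlap, and fell by 0.64 (SE 0.19, limma adjusted p = 0.0319). Hist1h4m went from 2.24 ± 0.326 to 1.38 ± 0.389 TPM (log2 fold change -0.56, limma adjusted p = 0.0352). Hist1h4n and Hist1h4b, the remaining genes called and named after their values were seen, changed by -0.56 and -0.55 (limma adjusted p = 0.0362 and 0.0358). These 5 genes rested on few reads: Hist1h4k had about 16.4 reads per control library and 8.82 per RT 24 h library. Without control mouse 2, without RT 24 h mouse 1 or without RT 24 h mouse 4, the count of members called went from 6 to 1, and single genes also lost their call without control mouse 1 (Hist1h4k, Hist1h4b), RT 24 h mouse 2 (Hist1h4c, Hist1h4b) or RT 24 h mouse 3 (Hist1h4m, Hist1h4n), with adjusted p up to 0.127.

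Where TPM were rescaled, the set grew within the same class. Median-ratio scaling called 9 members lower, all H4 genes, the 6 above and Hist1h4a, Hist1h4h and Hist1h4j, and rescaling without the mitochondrially encoded genes also called 9, with Hist2h2bb, an H2B gene, in place of Hist1h4j. Members lower in every RT 24 h mouse than in every control mouse numbered 10 of 35, against 0.898% of all genes, and none was higher, against 14.8% of all genes. The 10 were 7 H4 genes, the H1 gene Hist1h1a, the H2B gene Hist2h2bb and the H3 gene Hist2h3c2. Hist1h1a was at 0.71, 0.92, 0.53 and 0.45 TPM in controls and 0.13, 0.08, 0.17 and 0.17 TPM at RT 24 h, and its adjusted p was 0.101. Hist2h3c2 was at 0.68, 0.68, 0.53 and 0.58 TPM in controls and 0.28, 0.21, 0.43 and 0.30 TPM at RT 24 h, with an adjusted p of 0.154. In every RT 24 h mouse these 2 low genes were thus below every control mouse, without passing the test across genes.

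As a class, the 13 H4 genes summed to 38.8 ± 5.79 TPM in MC-38 controls and 22.1 ± 3.95 TPM at RT 24 h, with ranges of 32.4 to 45.5 and 18.6 to 27.6 TPM that did not overlap. The H2A, H2B and H1 sums overlapped between the groups, and H2B sums were nearly level at 22.3 ± 4.79 and 20.4 ± 6.67 TPM. The H3 sum went from 5.32 ± 1.03 to 3.68 ± 0.784 TPM, with overlapping ranges.

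Marker sums of T cells and endothelial cells also lay apart between these groups, while those of macrophages, neutrophils and B cells overlapped. T cell markers (Cd3e and 4 others) summed to 15.6 to 23.5 TPM in MC-38 controls and 7.41 to 14.6 TPM at RT 24 h, macrophage markers to 607 to 969 and 499 to 620 TPM, and endothelial markers to 32.9 to 46.7 and 48.4 to 59.6 TPM. Skeletal muscle markers ranged from 16.97 to 9789 TPM in the controls and from 10.0 to 3298 TPM at RT 24 h, with control mouse 1 and RT 24 h mouse 1 the highest of their groups. Without these 2 mice, a setting chosen after seeing the data, 1 member was called. The part of these cells in the H4 fall was not tested.

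In the same comparison, in which 13.2% of all genes rose and 0.548% fell, genes of S phase, of histone mRNA production and of histone chaperones that passed the test were higher, apart from 1 gene of each list that fell with median-ratio scaling. Of 23 S phase genes, 13 rose and none fell, with a median log2 fold change of 0.42. The helicase subunit genes Mcm3 and Mcm6 rose by 0.64 and 0.67 on the log2 scale (limma adjusted p = 0.000734 and 0.000841), whereas Pcna, the sliding clamp of DNA polymerase, changed by 0.24 (adjusted p = 0.201). Of 16 genes of histone gene transcription and mRNA processing, 4 rose and none fell (median 0.33). Slbp, the stem-loop binding protein gene, went from 65.7 ± 13.7 to 78.5 ± 8.30 TPM (adjusted p = 0.183), and Npat from 9.26 ± 2.60 to 13.1 ± 2.60 TPM (adjusted p = 0.0785). Of 14 histone chaperone genes, 4 rose and none fell (median 0.35), led by Daxx, which deposits H3.3 (log2 fold change 1.10, adjusted p = 0.000890), and by Chaf1b, a subunit of the replication-coupled assembly factor (0.59, adjusted p = 0.0129). Of 9 variant histone genes tested, which sit outside the clusters and are mostly polyadenylated, 1 rose and 2 fell: the centromeric H3 gene Cenpa rose by 0.76, and the linker histone gene H1f0 and the H3.3 gene H3f3b changed by -0.77 and -0.55 (limma adjusted p = 0.0491, 0.0130 and 0.0183). With median-ratio scaling, 10 S phase genes rose and 1 fell, 2 transcription and processing genes rose and 1 fell, 3 chaperone genes rose and 1 fell, and 5 variant histone genes fell and none rose.

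In MC-38 at RT 12 h, 1 of 35 members rose and none fell, against 28.5% of all genes higher and 2.59% lower. The gene was the H4 gene Hist1h4f, at 0.70, 0.97, 0.66 and 0.57 TPM in controls and 1.42, 1.22, 1.04 and 1.23 TPM at RT 12 h, without overlap (log2 fold change 0.50, SE 0.18, limma adjusted p = 0.0438). It rested on about 5.86 and 8.26 reads per library, and the call was lost without control mouse 1, 3 or 4 or any 1 of the 4 RT 12 h mice (adjusted p 0.0574 to 0.108). It was also lost with median-ratio scaling (0.27, adjusted p = 0.267) and without mitochondrially encoded genes (0.46, adjusted p = 0.0745), and under these 2 scalings the 1 member called was Hist1h4i instead, which fell (-0.62, adjusted p = 0.0131, and -0.42, adjusted p = 0.0385). Of the 35 members, 1 was higher in every RT 12 h mouse than in every control mouse and 1, Hist1h1c, lower, against 34.5% and 1.97% of all genes. The members' median log2 fold change was 0.12 with 25 of 35 above 0 and 10 below, against 0.33 over all genes with 17.4% below 0. Of the 35, 33 were below the median gene. On log2(TPM + 0.5) the changes of low genes are drawn toward 0, and most members were low. How much of this gap follows from their level was not tested. With median-ratio scaling, which moved the median of all genes to 0.00, the members' median turned to -0.15 and 29 of 35 were below 0. In this comparison 12 of the 16 genes of histone gene transcription and mRNA processing rose, among them Npat (0.70, adjusted p = 0.0178), Slbp (0.41, adjusted p = 0.0371) and Zfp473, which works with the U7 snRNP in histone mRNA 3' end formation (1.07, adjusted p = 0.00537), and 4 of them rose with median-ratio scaling. RT 12 h mouse 1 had the highest H3 sum of its group, 11.2 TPM against 3.37 to 5.85 TPM, and the highest Hist1h1a, 1.58 TPM against 0.34 to 0.51 TPM.

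The H1 gene Hist1h1c, the most abundant H1 gene of both models, was at 16.98, 5.76, 4.33 and 7.83 TPM in MC-38 controls and 2.94, 4.02, 3.92 and 4.18 TPM at RT 12 h. All RT 12 h mice were below all controls (log2 fold change -0.94, SE 0.36, limma adjusted p = 0.0574), and without control mouse 1 the change was -0.58 (adjusted p = 0.215). Without control mouse 2 or 3 the adjusted p was 0.0489 and 0.0189. Control mouse 1 also held the most skeletal muscle marker TPM of any library, 9789, and the RT 12 h mice held 5.54 to 419 TPM. The other mice did not all follow the same order. Control mice 2 and 3, at 5.76 and 4.33 TPM of Hist1h1c, held 16.97 and 119.6 TPM of the markers. RT 12 h mouse 2, at 4.02 TPM of Hist1h1c, held 419 TPM of them. Across MC-38 the next highest Hist1h1c values, 9.67 TPM in RT 24 h mouse 1 and 7.83 TPM in control mouse 4, came with 3298 and 1593 TPM of muscle markers. In RM-9, RT 3 h mouse 1 had 19.7 TPM of Hist1h1c with 24.4 TPM of muscle markers, and RT 24 h mouse 2 had 20.6 TPM with 200.3 TPM. The part of muscle in the MC-38 values was not tested.

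**Figure D3:**
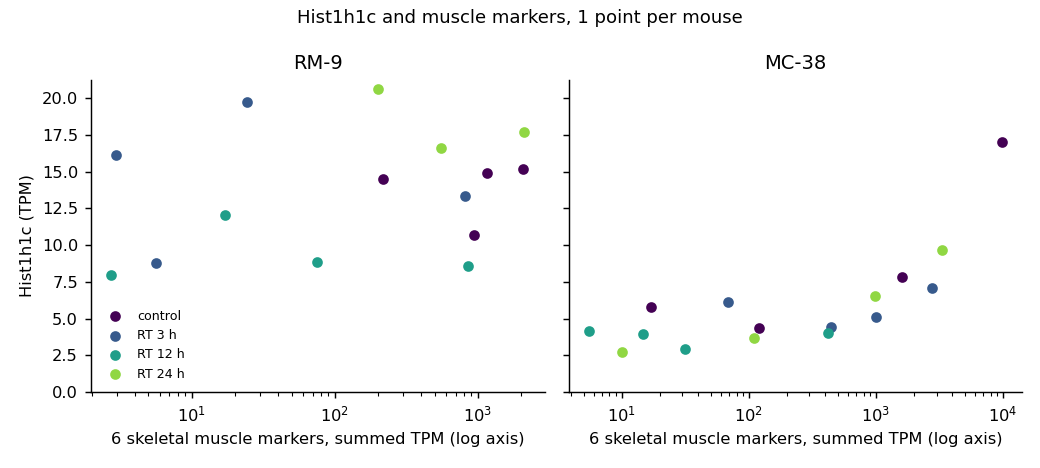
Hist1h1c TPM against the summed TPM of 6 skeletal muscle markers (log axis) in each mouse of RM-9 (left) and MC-38 (right), colored by group. In MC-38 the highest Hist1h1c value, 16.98 TPM, was in the library with the most muscle marker TPM, 9789, whereas the highest RM-9 value, 20.6 TPM, came with 200.3 TPM.

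In MC-38 at RT 3 h no member passed the test (limma, 0 at an unadjusted p under 0.05), against 0.051% of all genes higher and 0.0127% lower. None was higher or lower in every RT 3 h mouse than in every control mouse, against 7.2% and 0.975% of all genes. The median log2 fold change of the 35 members was -0.07, against 0.19 over all genes. As at RT 12 h, how much of this gap follows from the low level of most members was not tested. At this time Cdkn1a and Mdm2, targets of p53, rose by 0.80 and 1.11 (limma adjusted p = 0.0195 and 0.0121).

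In RM-9 at RT 12 h, 2 of 25 members fell and none rose, a share close to that of all genes, of which 8.30% fell and 0.0714% rose. Hist1h4i was at 6.39, 6.65, 4.91 and 8.97 TPM in controls and 4.01, 4.03, 4.21 and 3.87 TPM at RT 12 h, without overlap (log2 fold change -0.65, SE 0.14, limma adjusted p = 0.0253). Hist3h2a, an H2A gene, was at 3.49, 4.34, 3.35 and 4.15 TPM in controls and 3.01, 2.43, 2.44 and 2.47 TPM at RT 12 h, also without overlap (log2 fold change -0.49, SE 0.11, limma adjusted p = 0.0299). Both calls were lost without control mouse 1, 2 or 4 or RT 12 h mouse 1 or 4 (adjusted p 0.0571 to 0.107), and with median-ratio scaling (-0.45, adjusted p = 0.128, and -0.30, adjusted p = 0.264). Of the 25 members, 3 were lower in every RT 12 h mouse than in every control mouse and none higher, against 19.4% and 0.243% of all genes. The members' median was -0.11 with 20 of 25 below 0, against -0.19 over all genes with 84.6% below 0. With median-ratio scaling the members' median was 0.03 with 11 of 25 below 0. In the same comparison 10 of 23 S phase genes fell, among them Pcna (-0.57, adjusted p = 0.0288), as did 6 of 14 chaperone genes and 4 of 11 variant histone genes, of which H2afx, the variant phosphorylated at DNA breaks, went from 63.2 ± 8.70 to 41.5 ± 2.06 TPM (adjusted p = 0.0257). None of these 3 lists kept a call with median-ratio scaling.

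In RM-9 at RT 3 h no member passed the test (limma), against 0.2% of all genes higher and 0.0285% lower. At an unadjusted p under 0.05 there were 2 members, and the share of all genes at that level was not worked out. Those 2 were Hist1h4i, at 4.53, 5.26, 4.23 and 4.70 TPM (log2 fold change -0.46, 95% CI -0.75 to -0.17, adjusted p = 0.118), and Hist1h4b, named after its values were seen. Of the 25 members, 1 (Hist2h2aa1) was higher in every RT 3 h mouse than in every control mouse and none lower, against 9.88% and 2.87% of all genes. Hist1h4i passed with median-ratio scaling (-0.52, adjusted p = 0.0438). The 8 H4 genes tested had a median of -0.30 with 6 below 0, against 0.06 over all genes with 41.4% below 0. The sum of all H4 genes was 13.1 ± 2.81 TPM in controls and 9.97 ± 1.74 TPM at RT 3 h, with overlapping ranges. Cdkn1a and Mdm2 rose by 0.96 and 1.27 (limma adjusted p = 0.0106 and 0.0150).

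In RM-9 at RT 24 h no gene of any kind passed the test, so that 0% of genes were called in either direction. At an unadjusted p under 0.05 (limma) there were 7 of 25 members, and the share of all genes at that level was not worked out. Of the 25, 20 had a log2 fold change above 0 and 5 below, against 62.0% of all genes below 0. Their median was 0.20, against -0.04 over all genes. All 10 H2B genes tested were above 0 (median 0.34), and the 8 H4 genes had a median of -0.05. Hist1h2bc was at 36.1, 41.6, 36.3 and 29.5 TPM in controls and 47.5, 63.9 and 45.2 TPM at RT 24 h, without overlap (log2 fold change 0.53, SE 0.17, limma adjusted p = 0.947). In all, 8 of 25 members were higher in every RT 24 h mouse than in every control mouse, against 2.01% of all genes, and none lower, against 2.24%. Of the 8, 5 were H2B genes and 1 was Hist2h2aa1, whose control value of 0 is noted above. The rest were Hist1h1c and the processed pseudogene Hist1h2al. Hist1h4i was at 5.95, 6.87 and 5.89 TPM and overlapped the controls.

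**Figure D4:**
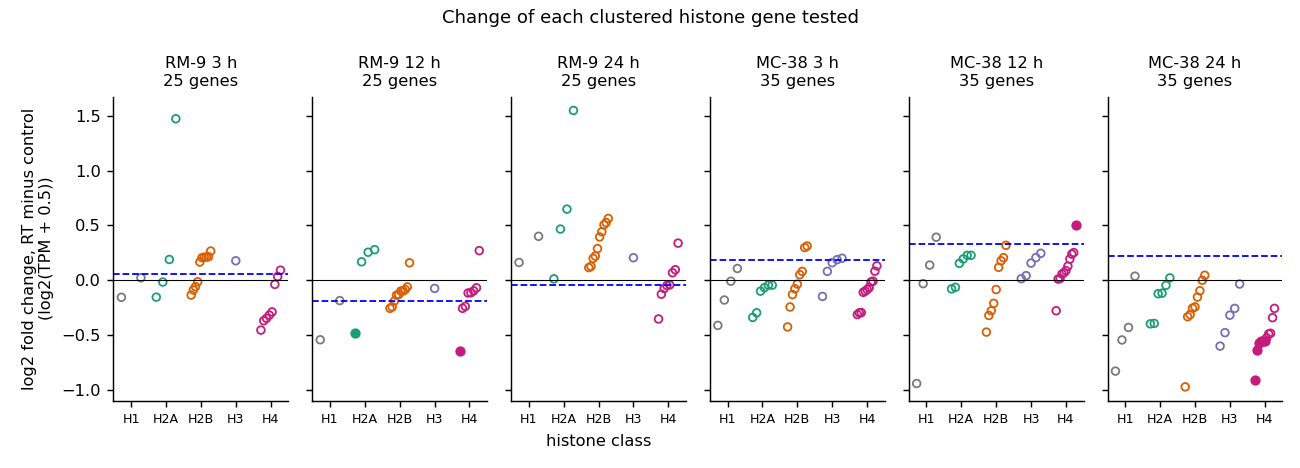
Log2 fold change, RT minus control, of each clustered histone gene tested, by class, in the 6 comparisons; filled points passed an adjusted p of 0.05, and the dashed blue line is the median of all genes. In MC-38 at 24 h all 35 points lie below that line and the 6 filled points are H4 genes; the open H2A points near 1.5 in RM-9 are Hist2h2aa1.

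Whether a change differed between the models was tested directly in a fit of all 31 libraries, with 31 members above 0.5 TPM. At 24 h the MC-38 change of Hist1h4i was lower than the RM-9 change by 0.83 on the log2 scale (log2 difference -0.83, 95% CI -1.29 to -0.37), with an adjusted p of 0.0501 that just missed the threshold. It was 0.00758 with median-ratio scaling and 0.00823 when rescaled without mitochondrially encoded genes, and it passed without RM-9 control mouse 4, MC-38 control mouse 3 or 4, or MC-38 RT 24 h mouse 3 (0.0194 to 0.0452). No member passed at 24 h (limma), while 0% of all 15358 genes were lower and 1.81% higher in MC-38. At an unadjusted p under 0.05 there were 13 members, and the share of all genes at that level was not worked out. Of the 31 differences, 29 were below 0, against 20.3% of all genes. At 12 h, 2 of 31 members had a higher change in MC-38, against 44.9% of all genes higher and 0.469% lower: Hist1h4f by 0.70 (adjusted p = 0.00993) and Hist3h2a by 0.68 (adjusted p = 0.00886). The difference for Hist3h2a was 0.22 with median-ratio scaling (adjusted p = 0.522), and Hist1h4f was then under 0.5 TPM and not tested. At 3 h no member differed (limma, 1 at an unadjusted p under 0.05), and 0% of all genes passed.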

How the data were processed

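RNA from 31 tumors was sequenced as single-end 75-base reads from poly(A)-selected libraries (TruSeq Stranded mRNA kit). The authors deposited 1 gene table per library with coverage (signal), FPKM and TPM, and TPM sum to 1000000 in each. The labels name bcl2fastq 2.17 and GRCm39, whereas coordinates in the tables matched GENCODE M21 (GRCm38): 91.1% of 45223 shared genes had the same start or end. The aligner and the quantifier are not given in the sources used here, nor is strand use. Depth was worked out by dividing coverage by FPKM, and the reads behind a gene as coverage × length / 75. Rows of 1 gene ID (9 to 23 extra rows per library) were summed.

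Members and gene lists were chosen with earlier results of these data known. Genes with a mean of at least 0.5 TPM over a model's libraries were tested with limma 3.58.1 (R 4.3.3) on log2(TPM + 0.5), 4 groups per model, with an intensity trend, and 8 groups for differences between models, with Benjamini-Hochberg adjustment over all genes tested. No count test was used, since no counts were given. The share of all genes at an unadjusted p under 0.05 was not worked out, so counts of members at that level have no background beside them. The fit was tested on simulated data. Named members were, per comparison, up to 4 rises and 4 falls past the threshold, the 8 most abundant of each model, the most abundant of each class and those past the threshold between models. Exact permutation tests were two-sided. Nothing in the labels gives pooling, so each library was taken as 1 mouse. No 2 libraries held identical values. TPM carry no counting interval, and levels set side by side across models came from separately normalized libraries. Python 3.11.15 drew the figures. Alternatives covered the pseudocount, scaling, filter, samples in the fit, trend, a replicate block and leaving out each mouse.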

Additional observations from a re-analysis of the deposited data

Results flagged for a closer look

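Of 168 combinations of 24 quantities (19 members and the 5 class sums) and the 7 groups of 4 mice, 16 had 1 mouse standing apart from the other 3 by Dixon's test, where chance gives about 1 in 20. In RM-9, Hist1h1c was 10.7 TPM in control mouse 4 against 14.5 to 15.2 TPM, and control mouse 2 had the highest Hist1h4m (0.966 against 0.452 to 0.524 TPM) and Hist1h4n (0.948 against 0.449 to 0.497 TPM), which share most of their sequence. Hist1h2bg was 5.05 TPM in RT 3 h mouse 1 against 4.00 to 4.16 TPM. At RT 12 h, Hist1h3i was 0.326 TPM in mouse 2 against 0.163 to 0.185 TPM, Hist3h2a was 3.01 TPM in mouse 1 against 2.43 to 2.47 TPM, and Hist2h2aa1 was listed at 0 in mouse 4 against 8.25 to 9.89 TPM.

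In MC-38, the H3 sum was 3.77 TPM in control mouse 4 against 5.71 to 5.93 TPM. At RT 3 h, Hist1h4b was 2.03 TPM in mouse 4 against 1.45 to 1.54 TPM, Hist2h2aa1 was 5.79 TPM in mouse 3 against 3.47 to 3.74 TPM, and Hist2h2aa2 was 0.837 TPM in mouse 2 against 1.79 to 1.91 TPM. At RT 12 h, mouse 1 had the highest Hist1h1a (1.58 against 0.342 to 0.511 TPM), Hist2h3c2 (1.58 against 0.432 to 0.617 TPM) and H2B sum (26.2 against 17.5 to 18.6 TPM), and mouse 4 the highest Hist1h2al (2.09 against 1.07 to 1.24 TPM). Hist2h2be was 2.84 TPM in RT 24 h mouse 1 against 2.06 to 2.08 TPM.

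The change at 12 h differed between the models for Hist1h4f (MC-38 change minus RM-9 change 0.70 on the log2 scale, limma adjusted p = 0.00993) and for Hist3h2a (0.68, limma adjusted p = 0.00886), in a comparison where 44.9% of all genes had a higher change in MC-38.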

How the results depend on the processing

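Counts of members past the threshold moved with the processing in every comparison that had calls. At RT 24 h in MC-38 the count was 6, and it was 2 with no filter, 1 with a filter at a mean of 5 TPM, 1 with only the 2 compared groups, 1 without control mouse 1 and RT 24 h mouse 1, and 1 to 6 with 1 mouse left out. At RT 12 h in MC-38 the count was 1, and it was 0 with a pseudocount of 0.1, no filter, only the 2 compared groups, the replicate block, or without control mouse 1 and RT 12 h mouse 1, and 0 to 2 with 1 mouse left out. It stayed at 1 with median-ratio scaling and without mitochondrially encoded genes, but the gene was then Hist1h4i, which fell, in place of Hist1h4f, which rose. At RT 12 h in RM-9 the count was 2, and it was 0 with median-ratio scaling, without mitochondrially encoded genes, with only the 2 compared groups or without control mouse 1 and RT 12 h mouse 4, 1 with a filter at a mean of 5 TPM, and 0 to 2 with 1 mouse left out. At RT 3 h in RM-9 it was 0, 1 with median-ratio scaling and 0 to 1 with 1 mouse left out. For the difference between models at 12 h the count was 2, and it was 0 with median-ratio scaling or a filter at a mean of 5 TPM, 1 without mitochondrially encoded genes, and 1 to 4 with 1 mouse left out. At 24 h it was 0, and it was 2 with a pseudocount of 1, median-ratio scaling, no trend or the replicate block, 3 without mitochondrially encoded genes, 1 with no filter or a filter at a mean of 5 TPM, and 0 to 2 with 1 mouse left out. No fold change of a member that passed in a comparison, of Hist1h1c at RT 12 h or of the Hist1h4i difference at 24 h changed sign under any alternative that tested it. The cause was not tested, except that the stricter filter tests fewer members and a smaller set of mice carries less information. Same-numbered mice shared only a number: their deviations correlated above 0.1 in 5 of 21 pairs in RM-9 and 7 of 24 in MC-38. The median-ratio and mitochondria settings change the whole scale, and low members rest on few reads, which limits what could be called.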
